A study of Lepidium sativum with 107 samples.

Results

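The radicle of garden cress (Lepidium sativum, line FR14) was followed over one step of germination, from seeds whose coat had just split at 7 h to seeds at 10 h. The groups were taken from the sample labels: 4 arrays of radicle with lower hypocotyl dissected at 7 h from seeds with ruptured testa, and 4 arrays of the same tissue dissected at 10 h, which makes 8 arrays, or 7.48% of the series. All 13895 probe sets of the table entered the comparison, and none of them was an Affymetrix control. Seeds of every group lay in sterile water alone at 24 °C under continuous light, and 100 radicles were pooled for a sample. The 7 h seeds were sorted by the state of the testa, whereas the labels do not say that the 10 h seeds were, so time and the mix of seeds cannot be told apart. The labels name no separate seed cultures for the replicates either. A p-value here rests on the spread between samples within a group, pooled over all 27 groups of the series, and that spread may be technical. In the whole series, dissected tissues (micropylar endosperm, which caps the radicle tip, other endosperm, radicle and cotyledons) and dry seeds were hybridised, 1 sample to an array, in 27 groups.

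Garden cress germinates in steps that can be seen by eye: the testa splits, and later the radicle pushes through the endosperm that still covers its tip. Between these events the embryo leaves its dry state. Dehydration proteins of the mature seed disappear, cell walls yield so that radicle cells elongate, and cells that stopped before DNA synthesis when the seed matured prepare to replicate their genomes again. DNA is copied by a helicase of MCM subunits that opens the double strand at origins, by the clamp PCNA and by polymerases, and the new strands are packed on new histones.

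Levels are log2 values as deposited, so 1 unit is a doubling, and they were compared within a probe set, never between genes. A difference passed at a Benjamini-Hochberg adjusted p under 0.05 in limma, and errors after a log2 change are limma standard errors. Of all group means 25% lay under 3.59, and a mean below that value was treated as not clearly above background. Correlations between arrays over all probe sets were 0.967 to 0.974 at 7 h, 0.947 to 0.971 at 10 h and 0.939 to 0.964 between the times, so the 10 h arrays were the less uniform group. Of 14 measured root markers 10 lay over the brightness limit in radicle at 7 h, and their mean level was 3.96 to 4.20 on the 8 radicle arrays against 3.45 to 3.64 on the arrays of cotyledons at 7 h and 13 h. In micropylar endosperm it was 3.56 to 4.03 at 7 h with ruptured testa, which overlaps the radicle's range, and 3.64 to 3.75 at 10 h. Cotyledon and shoot markers (13 measured) had a mean level of 3.76 to 3.95 in radicle and 4.23 to 4.51 in cotyledons. Endosperm markers, of which only 3 were measured, stood at 4.05 to 4.50 in radicle at 7 h, 3.92 to 4.16 at 10 h and 4.67 to 5.11 in micropylar endosperm. These 3 (EPR1, SUC5 and ICE1) and the 2 measured seed coat markers did not pass between 7 h and 10 h (log2 change -0.24 to -0.01). Seed coat markers stood at 4.40 to 4.91 in radicle at 7 h and 4.08 to 4.81 at 10 h. In micropylar endosperm they were at 3.95 to 4.11 and 3.55 to 4.24 at those times, and in cotyledons at 4.49 to 5.23 at 7 h and 3.97 to 4.65 at 13 h. The part of adhering seed coat in the radicle values was not tested. In a bulk sample, fewer cells of a type and less RNA per cell cannot be told apart.

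From 7 h to 10 h, 579 of 13895 probe sets passed (4.17%), of which 369 were higher at 10 h (2.66%) and 210 lower (1.51%). Among them were 70 genes of the 50 lists first drawn up for seed and root biology, 49 higher and 21 lower. Those lists were drawn up with earlier results of these data known. A list for folding of proteins in the endoplasmic reticulum, put together after its values were seen, added 12 more risers. Of 24 DNA replication genes 12 rose and of 16 fatty acid genes 6, whereas 6 of 20 dehydration proteins and 3 of 12 small heat shock proteins fell. The median change of all probe sets was -0.01. Every list count of this step below stands against the shares of all probe sets, 2.66% higher and 1.51% lower. Of the 50 lists, 22 had no passing member, including expansins (0 of 25), cellulose synthesis (0 of 16), ethylene (0 of 22), tubulins and actins (0 of 18) and photosynthesis (0 of 34). Fitted on the 8 arrays alone, with no spread borrowed from the other groups, 202 probe sets passed (126 higher, 76 lower), and 38 of the 85 named genes and codes that had passed no longer did. Without replicate 3 at 10 h the count was 370.

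**Figure D1:**
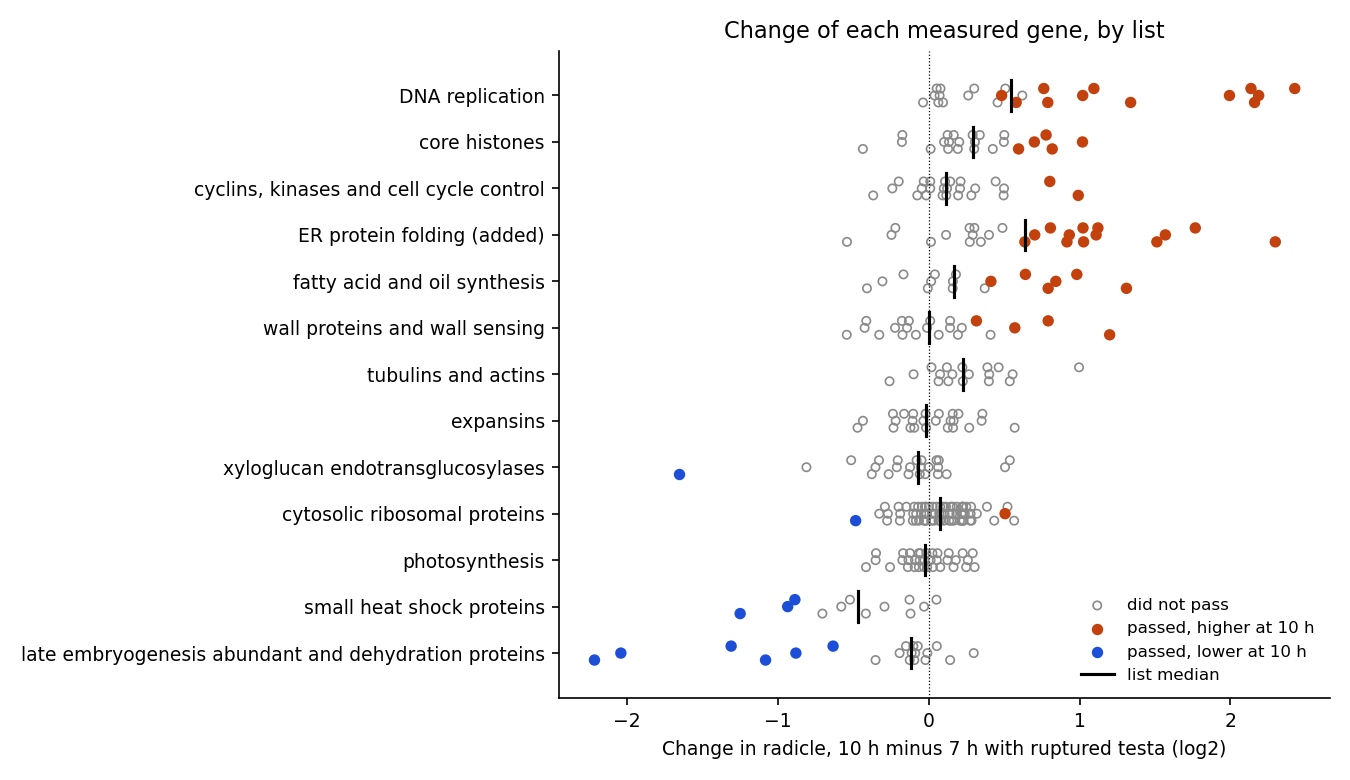
Change in radicle from 7 h with ruptured testa to 10 h on a log2 scale for each measured gene of 13 lists, with genes that passed in limma filled and the list median as a vertical bar. Of 24 DNA replication genes 12 passed, all higher at 10 h, and of 20 dehydration genes 6 passed, all lower.

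DNA replication was the list of the first 50 with the most passing members. Of 24 measured members 12 rose and none fell, with a median of 0.54 against -0.01 over all probe sets, and the groups did not overlap in 10 of the 12 (4.16% of all probe sets were higher at 10 h without overlap). The level of MCM7 (AT4G02060), a subunit of the replicative helicase, was 4.05, 3.76, 3.76 and 3.77 in replicates 1 to 4 at 7 h and 6.68, 5.53, 6.70 and 6.13 at 10 h. Every 10 h array was thus above every 7 h array, replicate 2 being the lowest at 10 h, and the change was 2.43 ± 0.23, or 5.38-fold (limma adjusted p = 3.09e-13). MCM5 (AT2G07690), another subunit of that ring, stood at 4.85, 4.83, 4.61 and 4.81 at 7 h and at 6.82, 6.12, 7.40 and 7.52 at 10 h. The groups were again apart, and MCM5 rose by 2.19 ± 0.21 (adjusted p = 7.74e-13).

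MCM4 (AT2G16440) was at 4.58, 3.91, 3.98 and 3.96 at 7 h and at 5.77, 5.75, 7.28 and 6.29 at 10 h, a rise of 2.16 ± 0.25 (limma adjusted p = 2.16e-10). MCM2 (AT1G44900) was at 3.33, 3.66, 3.79 and 3.48 at 7 h, with a mean under the brightness limit, and at 5.76, 4.78, 7.00 and 5.27 at 10 h. Its rise of 2.14 ± 0.22 (adjusted p = 5.43e-12) may therefore be understated. The 10 h arrays spread widely, replicate 3 being the highest and replicate 2 the lowest. MCM3 (AT5G46280) rose less, by 1.10 ± 0.18 (adjusted p = 1.30e-05), from 3.79, 3.73, 3.75 and 3.63 to 5.23, 3.91, 5.38 and 4.76, with replicate 2 only just above the 7 h arrays. The 5 MCM subunits named so far belong to the replicative ring, and no other subunit of that ring was among the risers. MCM8 (AT3G09660), a relative outside that ring, was at 0.05 ± 0.14 and did not pass.

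Transcripts of several proteins that follow the helicase rose as well. RPA1B (AT5G08020), which coats single-stranded DNA, was at 6.68, 6.33, 6.44 and 5.72 at 7 h and at 8.64, 7.83, 8.52 and 8.17 at 10 h, apart on all arrays, and rose by 1.99 ± 0.23 (limma adjusted p = 1.73e-10). PCNA1 (AT1G07370), the clamp that holds polymerases on DNA, rose by 1.34 ± 0.24 (adjusted p = 6.71e-05), from 5.38, 6.07, 5.75 and 5.39 to 6.94, 6.62, 7.51 and 6.88. Smaller rises were those of POLD1 (AT5G63960), the catalytic subunit of polymerase delta, by 1.02 ± 0.25, of RNR1 (AT2G21790), the large subunit of the enzyme that makes deoxyribonucleotides, by 0.76 ± 0.20, and of CDC45 (AT3G25100), a helicase partner, by about 0.58 ± 0.11. PCNA2 (AT2G29570, 0.79 ± 0.24) and the origin protein ORC2 (AT2G37560, 0.48 ± 0.13) rose too, although their groups overlapped, PCNA2 being at 4.30 in replicate 4 at 10 h and at 5.70 to 6.10 in the others. The 12 members that did not pass lay between -0.04 and 0.62, among them the ribonucleotide reductase subunits TSO2 (AT3G27060, -0.04 ± 0.14) and RNR2A (AT3G23580, 0.10 ± 0.20) and the DNA ligase LIG1 (AT1G08130, 0.30 ± 0.25).

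Within the 10 h group the replication genes did not stand at one height. Replicate 2 was the lowest of the 4 arrays for 9 of the 12 risers, and replicate 3 was the highest for 6 of them. Without replicate 2 at 10 h 13 members rose, and without replicate 3 9 did. On the 8 arrays alone 6 rose (MCM2, MCM4, MCM5, MCM7, RPA1B and PCNA1), while the calls of MCM3, POLD1, RNR1, CDC45, PCNA2 and ORC2 ended. POLD1 did not pass without replicate 4 at 7 h (0.81) or replicate 4 at 10 h (0.75), and RNR1 without replicate 1 (0.63) or 3 (0.65) at 10 h. ORC2 did not pass without replicate 2 at 7 h (0.38) or replicates 3 (0.46) or 4 (0.43) at 10 h, nor PCNA2 in 5 of the 8 fits that left out 1 array.

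At the radicle stages before 10 h MCM7 was near the brightness limit. Its mean level was 3.39 ± 0.09 at 1 h, 3.18 ± 0.23 at 5 h, 3.62 ± 0.22 at 7 h with intact testa, 3.84 ± 0.14 at 7 h with ruptured testa, 6.26 ± 0.55 at 10 h and 6.64 ± 0.46 at 13 h (SD, n = 4 each). MCM5 was at 4.84 ± 0.52 at 1 h, 4.78 ± 0.11 at 7 h with ruptured testa and 7.61 ± 0.20 at 13 h (SD, n = 4 each). In the comparison of ruptured with intact testa at 7 h 1 member of the list rose (0.633% of all probe sets were higher, 1.71% passed in either direction), RPA1B by 1.00 ± 0.23, and from 10 h to 13 h 1 member rose (0.259% were higher, 0.331% passed), MCM3 by 0.82 ± 0.18. Set against 7 h seeds with intact testa, the 10 h arrays were higher for 16 of the 24 (6.70% of all probe sets were higher, 13.0% passed). These comparisons share arrays with the step from 7 h to 10 h, so their values stand side by side only.

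**Figure D2:**
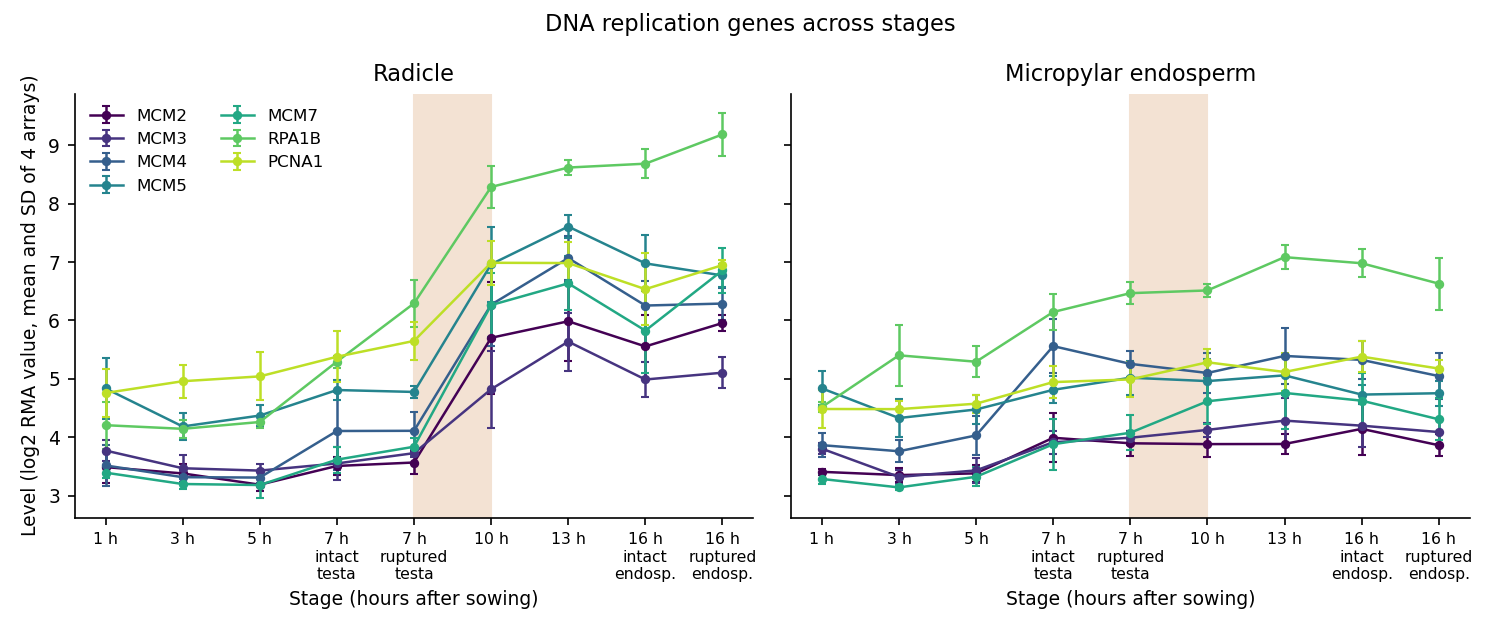
Mean level and SD (log2, 4 arrays) of 7 DNA replication genes at 9 stages of imbibition in radicle and micropylar endosperm, with the step from 7 h with ruptured testa to 10 h shaded. MCM7 goes from 3.84 to 6.26 in radicle over that step and from 4.08 to 4.62 in micropylar endosperm.

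Of 23 core histones, the proteins on which DNA is wound, 5 rose and none fell (median 0.29), where 2.66% of all probe sets rose. HTA6 (AT5G59870), an H2A, was at 7.84, 7.47, 7.61 and 7.63 at 7 h and at 8.39, 9.20, 8.75 and 8.29 at 10 h. All 10 h arrays were higher, and it rose by 1.02 ± 0.19 (limma adjusted p = 0.000165). A pair of H3.1 genes, which code for the histone H3 laid down during replication, rose by 0.82 ± 0.19 (AT5G10400) and 0.70 ± 0.16 (AT5G65360), the H2B HTB2 (AT5G22880) by 0.78 ± 0.23 and the variant H2A HTA8 (AT2G38810) by 0.60 ± 0.18. Members of such families are nearly identical and can share probes. On the 8 arrays alone HTB2, HTA8 and the H3.1 AT5G10400 did not pass. The last also failed without replicate 2 at 10 h (0.63), as did HTB2 in 5 and HTA8 in 7 of the 8 fits. HTA6 went on rising from 10 h to 13 h, by 0.78 ± 0.19 (adjusted p = 0.0383).

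Among 25 cyclins, kinases and cell cycle regulators 2 rose and none fell (median 0.12). Of all probe sets 2.66% rose, so that count is not read as a result about the list. RBR1 (AT3G12280), the retinoblastoma protein that restrains entry into DNA synthesis, was at 4.63, 4.28, 5.08 and 3.92 at 7 h and at 5.76, 4.36, 6.05 and 5.70 at 10 h, so that replicate 2 at 10 h lay within the 7 h range, and it rose by 0.99 ± 0.27 (limma adjusted p = 0.0165). CYCD3;3 (AT3G50070), a D-type cyclin that drives cells from the first gap phase, rose by 0.80 ± 0.23 (adjusted p = 0.0211), from 5.81 to 6.47 at 7 h to 6.68 to 7.36 at 10 h. On the 8 arrays alone neither passed. Leaving out 1 array ended the call of RBR1 in 5 of 8 fits and that of CYCD3;3 in 3 (replicate 1 at 7 h, 0.67, and replicates 2, 0.69, and 4, 0.71, at 10 h). The B-type cyclins and the kinase named here did not pass: CYCB1;4 (AT2G26760) was at 0.12 ± 0.13, CYCB2;1 (AT2G17620) at -0.37 ± 0.19 and CDKB2;2 (AT1G20930) at 0.11 ± 0.28. The panel cyclin CYCD1;1 (AT1G70210) was at 0.10 ± 0.18, under the brightness limit at both times, and CYCB1;1 is not analysed here.

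The second group of risers was protein folding in the endoplasmic reticulum, where secreted and membrane proteins are made. Its list was put together after the values had been seen, starting from AT1G09210, the second largest rise among codes outside the first lists, so its count carries no weight of its own: 13 of 25 measured members rose, none fell, and the median was 0.64. AT1G09210 is CRT1B, a calreticulin that holds newly made glycoproteins until they are folded. CRT1B was at 5.94, 5.69, 5.15 and 6.10 at 7 h and at 7.29, 8.23, 8.28 and 8.25 at 10 h, with replicate 1 the low array at 10 h and no overlap, and rose by 2.30 ± 0.27, or 4.92-fold (limma adjusted p = 4.76e-10). Its relative CRT1A (AT1G56340) rose by 1.57 ± 0.27, and CNX1 (AT5G61790), the membrane-bound counterpart calnexin, by 1.12 ± 0.22. HSP90.7 (AT4G24190), the HSP90 of this compartment, was at 5.40, 5.22, 5.41 and 5.17 at 7 h and at 6.94, 6.55, 7.19 and 6.58 at 10 h, and rose by 1.51 ± 0.22 (adjusted p = 3.34e-07). The groups stood apart, and it was the 1 riser among 24 large chaperones and heat shock factors.

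HSP70-17 (AT4G16660), an HSP70 of the same compartment, rose by 1.77 ± 0.33 (limma adjusted p = 0.000114) and its co-chaperone ERDJ3B (AT3G62600) by 1.11 ± 0.23. Protein disulfide isomerases, which form and reshuffle disulfide bonds, rose in 5 cases: PDIL1-1 (AT1G21750) by 1.03 ± 0.19, PDIL2-3 (AT2G32920) by 1.02 ± 0.19, PDIL2-1 (AT2G47470) by 0.81 ± 0.18, PDIL1-3 (AT3G54960) by 0.70 ± 0.18 and PDIL1-4 (AT5G60640) by 0.64 ± 0.19. STT3A (AT5G19690, 0.93 ± 0.27) and HAP6 (AT4G21150, 0.92 ± 0.21), subunits of the enzyme that attaches sugar chains to proteins, also rose. The transcription factors that switch on these genes under folding stress in Arabidopsis did not pass, BZIP28 (AT3G10800) being at -0.54 ± 0.29 and BZIP60 (AT1G42990) at -0.25 ± 0.15. These are transcript levels, and the activity of the 2 factors was not measured. Replicates 1 and 2 were the lowest 10 h arrays for 6 and 7 of the 13 risers, and no riser had its lowest 10 h value in replicate 3 or 4. On the 8 arrays alone 11 rose, the calls of HSP70-17 and PDIL1-3 being lost. PDIL1-3 did not pass without replicate 1 at 10 h (0.57), and PDIL1-4 and STT3A failed in 5 of the 8 fits with 1 array left out.

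The mean level of CRT1B was 5.74 ± 0.67 at 1 h and 3.90 ± 0.16 at 5 h, and at 7 h 5.10 ± 0.61 with intact and 5.72 ± 0.42 with ruptured testa. It reached 8.02 ± 0.48 at 10 h and 8.95 ± 0.30 at 13 h (SD, n = 4 each). HSP90.7 was likewise lower at 5 h (3.81 ± 0.32) than at 1 h (5.26 ± 0.25), without a test, and stood at 6.81 ± 0.31 at 10 h (SD, n = 4 each).

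**Figure D3:**
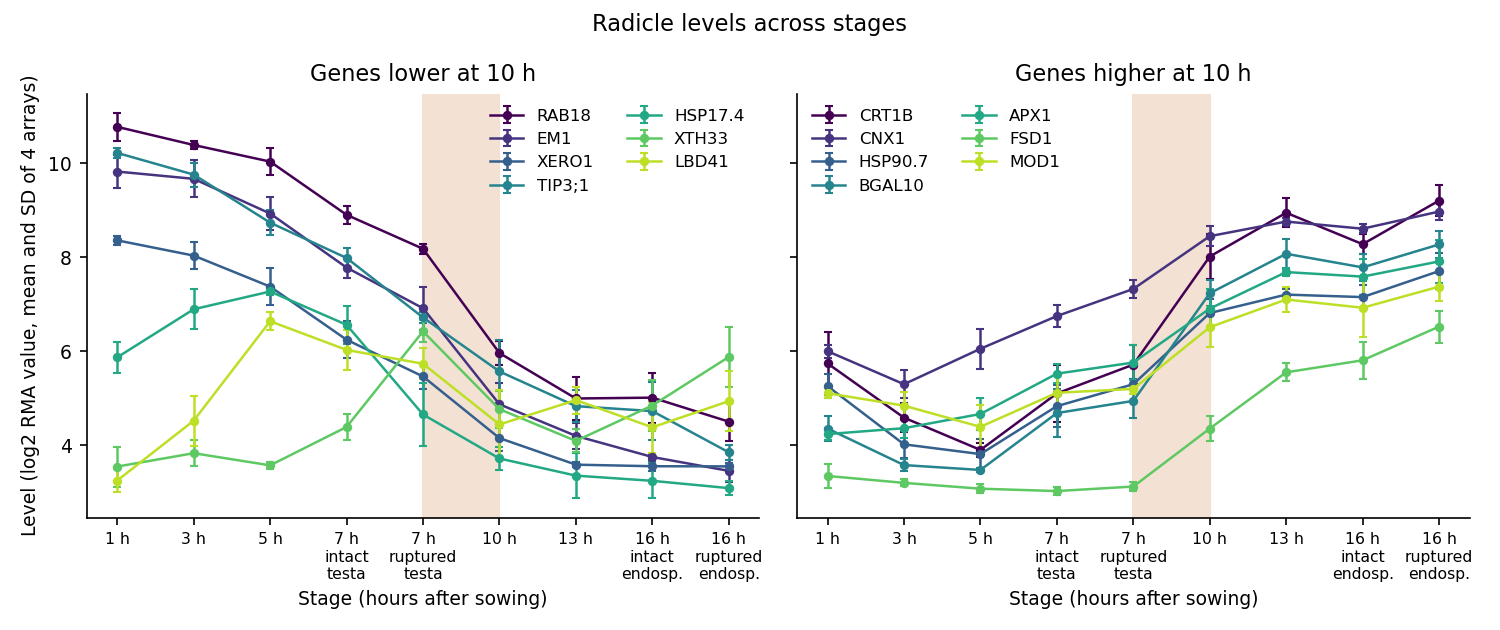
Mean level and SD (log2, 4 arrays) in radicle at 9 stages for 7 genes lower and 7 genes higher at 10 h, with the step from 7 h with ruptured testa to 10 h shaded. RAB18 falls from 10.77 at 1 h to 8.18 and 5.96 on either side of the step, whereas CRT1B dips to 3.90 at 5 h before it reaches 8.02 at 10 h.

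Of 16 fatty acid and oil synthesis genes 6 rose and none fell (median 0.17). MOD1 (AT2G05990), the enoyl reductase that completes each round of chain growth in plastids, was at 5.36, 5.17, 5.11 and 5.16 at 7 h and at 5.96, 6.39, 6.81 and 6.89 at 10 h. The groups did not overlap, and it rose by 1.31 ± 0.24 (limma adjusted p = 7.71e-05). KAS1 (AT5G46290), which joins the carbon units, rose by 0.98 ± 0.22, FAD3 (AT2G29980), a desaturase of the endoplasmic reticulum, by 0.84 ± 0.19, CAC2 (AT5G35360), a subunit of acetyl-CoA carboxylase, by 0.79 ± 0.24, and SSI2 (AT2G43710), the stearoyl desaturase, by 0.64 ± 0.18. WRI1 (AT3G54320), a transcription factor of this pathway, rose by 0.41 ± 0.12. The groups of WRI1 and of CAC2 overlapped. On the 8 arrays alone 2 rose, MOD1 and KAS1. The count was 3 without replicate 4 at 7 h or replicate 3 at 10 h, and SSI2, WRI1 and CAC2 failed in 4, 5 and 6 of the 8 fits.

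Of 23 genes of storage oil breakdown 2 rose and none fell (median 0.23): KAT2 (AT2G33150), a thiolase of fatty acid beta-oxidation, by 0.66 ± 0.16, and PCK1 (AT4G37870), which feeds oil carbon into sugar, by 0.65 ± 0.18. As 2.66% of all probe sets rose, that count is not read as a result about the list. KAT2 did not pass without replicate 2 at 10 h (0.53) or on the 8 arrays alone, nor PCK1 without replicate 4 at 7 h (0.56). ICL (AT3G21720), the isocitrate lyase of the glyoxylate cycle, was at 0.41 ± 0.20 (limma adjusted p = 0.307). SUS1 (AT5G20830), a sucrose synthase, rose by 1.13 ± 0.25 (adjusted p = 0.00158), from 7.36, 7.48, 7.00 and 7.14 to 8.38, 8.23, 8.48 and 8.40. It was the 1 riser among 22 proton pump and sugar genes, and its groups lay far apart. GLN1;2 (AT1G66200), a glutamine synthetase, rose by 0.76 ± 0.22 with overlapping groups. It was lost on the 8 arrays alone and in 5 of the 8 fits with 1 array left out.

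Both genes that passed of the 15 listed as NADPH oxidases and antioxidant enzymes rose. The seed peroxiredoxin PER1, counted below with the dehydration proteins, fell. FSD1 (AT4G25100), an iron superoxide dismutase, was at 3.07, 3.27, 3.07 and 3.08 at 7 h, under the brightness limit, and at 3.99, 4.49, 4.36 and 4.59 at 10 h. All 10 h arrays were higher, and the rise of 1.23 ± 0.17 (limma adjusted p = 1.81e-07) may be understated. From 10 h to 13 h FSD1 rose by a further 1.20 ± 0.17 (adjusted p = 3.70e-06). APX1 (AT1G07890), a cytosolic ascorbate peroxidase, rose by 1.15 ± 0.21 (adjusted p = 7.06e-05).

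In the cell wall, 2 genes of matrix polysaccharides and 4 arabinogalactan proteins rose, and no expansin passed. BGAL10 (AT5G63810), a galactosidase that trims xyloglucan, was at 5.24, 4.99, 5.13 and 4.43 at 7 h and at 7.06, 6.99, 7.62 and 7.26 at 10 h. The 10 h arrays all stood higher, and it rose by 2.29 ± 0.25, or 4.88-fold (limma adjusted p = 4.14e-11). CSLA2 (AT5G22740), a glucomannan synthase, rose by 0.72 ± 0.18, the other riser of 15 genes of matrix polysaccharides. Of 22 wall proteins 4 rose and none fell, where 2.66% of all probe sets rose. They were the arabinogalactan proteins AGP31 (AT1G28290) by 1.20 ± 0.24, FLA8 (AT2G45470) by 0.79 ± 0.22, FLA1 (AT5G55730) by 0.57 ± 0.17 and AGP18 (AT4G37450) by 0.32 ± 0.10. AGP31 was at 6.40, 6.56, 6.90 and 6.25 at 7 h and at 7.64, 7.82, 7.80 and 7.66 at 10 h, and rose again by 1.03 ± 0.24 by 13 h (adjusted p = 0.0149). The groups of FLA8 overlapped, and on the 8 arrays alone FLA8, FLA1 and AGP18 did not pass. FLA8 was also lost without replicate 2 at 7 h (0.71) or replicates 3 (0.66) or 4 (0.60) at 10 h, and FLA1 and AGP18 when any of 6 and 7 of the 8 arrays was left out.

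XTH33 (AT1G10550), an enzyme that cuts and rejoins xyloglucan, was the 1 of 24 members of its family to pass, and it fell. The level was 6.72, 6.48, 6.17 and 6.32 at 7 h and 4.39, 4.59, 4.78 and 5.31 at 10 h, without overlap, a fall by 1.65 ± 0.30 (limma adjusted p = 9.95e-05). At 7 h the same gene was 2.03 ± 0.30 higher in ruptured than in intact seeds, so the ruptured 7 h seeds had its highest mean up to 13 h. The mean was 4.39 ± 0.27 at 7 h with intact testa and 4.10 ± 0.24 at 13 h (SD, n = 4 each). In micropylar endosperm XTH33 stood at 11.41 ± 0.25 at 7 h and 10.88 ± 0.24 at 10 h (SD, n = 4 each), and the part of adhering endosperm in the radicle values was not tested. XTH4 (AT2G06850, -0.27 ± 0.21) and XTH9 (AT4G03210, -0.33 ± 0.28) did not pass, nor did the expansins EXPA1 (AT1G69530, -0.02 ± 0.22) and EXPA8 (AT2G40610, -0.22 ± 0.24). Of 13 pectin methylesterases, which change how stiff pectin is, 2 fell and none rose, PME31 (AT3G29090) by 0.76 ± 0.23 and PME44 (AT4G33220) by about 0.29 ± 0.09. The groups of PME44 overlapped, and both genes were lost in 6 of the 8 fits with 1 array left out.

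The deepest falls were of transcripts for proteins that protect seeds during drying. Of 20 late embryogenesis abundant and dehydration proteins 6 fell and none rose (median -0.12), and 7 stood lower at 10 h without overlap (4.49% of all probe sets did). RAB18 (AT5G66400), a dehydrin induced by abscisic acid (ABA), was at 8.04, 8.30, 8.18 and 8.21 at 7 h and at 5.64, 6.15, 5.90 and 6.16 at 10 h. The 2 groups were narrow and far apart, and the fall by 2.22 ± 0.22 was the largest of all probe sets (limma adjusted p = 1.59e-12). EM1 (AT3G51810), which binds water in dry embryos, fell by 2.04 ± 0.33 (adjusted p = 9.55e-06), from 6.65, 7.32, 6.40 and 7.28 to 4.43, 4.64, 4.96 and 5.46. The dehydrins XERO1 (AT3G50980) and XERO2 (AT3G50970) fell by 1.31 ± 0.21 and 0.63 ± 0.17, the seed peroxiredoxin PER1 (AT1G48130) by 1.08 ± 0.26 and RAB28 (AT3G22490) by about 0.88 ± 0.24.

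The other 14 dehydration proteins lay between -0.35 and 0.30, and several of them, such as ECP63 (AT2G36640) and EM6 (AT2G40170), were already under the brightness limit at both times. PER1 did not pass without replicate 3 at 10 h (-0.86), and XERO2 failed on the 8 arrays alone and without replicate 2 at 7 h (-0.59) or replicate 1 at 10 h (-0.50). RAB28 was lost without replicates 2 (-0.82) or 4 (-0.83) at 7 h or replicate 3 at 10 h (-0.85). Along the radicle stages RAB18 was at 10.77 ± 0.30 at 1 h and at 8.90 ± 0.19 and 8.18 ± 0.11 at 7 h with intact and with ruptured testa. It was at 5.96 ± 0.25 at 10 h and 4.50 ± 0.41 at 16 h with ruptured endosperm (SD, n = 4 each). From 10 h to 13 h RAB18 fell by a further 0.97 ± 0.22 (limma adjusted p = 0.0138), when 0.0720% of all probe sets fell. Against 7 h seeds with intact testa, on shared arrays, 8 of the 20 were lower at 10 h (6.30%).

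TIP3;1 (AT1G73190), the water channel of protein storage vacuoles, fell by 1.15 ± 0.25 (limma adjusted p = 0.00108), and TIP1;2 (AT3G26520), a water channel of the vacuole in growing tissue, rose by 1.18 ± 0.27 (adjusted p = 0.00257). The level of TIP3;1 was 6.72, 6.78, 6.56 and 6.82 at 7 h and 4.77, 5.92, 5.29 and 6.30 at 10 h, that of TIP1;2 6.02, 6.46, 6.36 and 6.21 at 7 h and 7.45, 7.99, 7.29 and 7.06 at 10 h. Neither overlapped between the times, but TIP3;1 ranged widely at 10 h and did not pass on the 8 arrays alone. They were the 2 of 25 aquaporins to pass. TIP1;1 (AT2G36830) was at -0.38 ± 0.13 and passed when replicate 1 at 7 h was left out (-0.46), and PIP2;7 is not analysed here. None of 14 storage and oil body proteins passed (median -0.06), and only 5 of them were over the brightness limit in either radicle group.

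Of 12 small heat shock proteins, chaperones that seeds store for the dry state, 3 fell and none rose (median -0.47). At 7 h, 9 were lower in seeds with ruptured than with intact testa, on shared 7 h arrays (1.07% of all probe sets were lower). Those are different seeds of the same hour sorted by testa state, not the same seeds over time. HSP15.4 (AT4G21870) was at 7.01, 7.26, 7.03 and 7.24 at 7 h and at 5.94, 6.49, 5.65 and 5.46 at 10 h, and fell by 1.25 ± 0.30 (limma adjusted p = 0.00422). The groups did not overlap, and in the comparison of ruptured with intact testa this gene had been at 0.84 ± 0.30, not past the threshold. HSP17.4 (AT3G46230) fell by 0.94 ± 0.23 and HSP23.6 (AT4G25200) by 0.89 ± 0.20, and neither passed on the 8 arrays alone. At 7 h they were lower by 1.91 ± 0.23 and 1.54 ± 0.20 in ruptured than in intact seeds. Without replicate 4 at 7 h HSP17.4 did not pass (-0.63), its level there being 5.57 against 4.05 to 4.71 in the others. MBF1C (AT3G24500), a co-activator of heat responses, fell by 0.71 ± 0.20, and did not pass without replicates 2 (-0.66) or 4 (-0.67) at 7 h or replicate 1 at 10 h (-0.65).

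Of 18 genes of low oxygen and alternative respiration 2 fell and none rose (median -0.15). As 1.51% of all probe sets fell, that count is not read as a result about the list. LBD41 (AT3G02550), a transcription factor induced when oxygen is short, was at 5.36, 5.62, 5.83 and 6.13 at 7 h and at 5.27, 4.36, 4.64 and 3.50 at 10 h. The groups just separated, replicate 1 at 10 h standing close to the 7 h arrays, and LBD41 fell by 1.29 ± 0.32 (limma adjusted p = 0.00541). It did not pass without replicate 4 at 10 h (-0.98) or on the 8 arrays alone. PCO2 (AT5G39890), an oxidase through which plant cells sense oxygen, was at 4.67, 5.00, 5.07 and 4.77 at 7 h and at 4.23, 4.23, 4.07 and 3.92 at 10 h, without overlap, and fell by 0.77 ± 0.18 (adjusted p = 0.00443). ADH1 (AT1G77120), the alcohol dehydrogenase of fermentation, was at 0.35 ± 0.24 and did not pass.

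Hormone genes passed in small numbers. Of all probe sets 4.17% passed, so the counts of the hormone lists are not read as a result about hormones. AHP6 (AT1G80100), an inhibitor of cytokinin signalling in the root vasculature of Arabidopsis, was at 3.91, 4.09, 4.45 and 4.65 at 7 h and at 5.42, 5.70, 5.39 and 5.24 at 10 h. Its groups did not overlap, and it rose by 1.16 ± 0.21 (limma adjusted p = 5.01e-05), the 1 of 11 cytokinin genes to pass. PLT2 (AT1G51190), a transcription factor of the root stem cell niche, rose by 0.78 ± 0.20, the 1 of 14 root markers to pass. Its level at 10 h was 4.13, 4.18, 4.57 and 5.41 against 3.72 to 3.91 at 7 h, and without replicate 4 at 10 h, the highest array, the change was 0.50 and did not pass.

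Of 16 gibberellin signalling genes 2 rose and none fell: GASA6 (AT1G74670), a small peptide of cell elongation in Arabidopsis, by 1.12 ± 0.32, and the DELLA repressor RGL3 (AT5G17490) by 0.88 ± 0.20. Replicate 2 of RGL3 at 10 h (5.01) lay within the 7 h range of 4.28 to 5.25, and its call was lost without replicate 4 at 7 h (0.66), without replicate 3 at 10 h (0.67) and on the 8 arrays alone. GASA6 was lost without replicates 2 (1.10) or 4 (1.06) at 7 h or replicates 2 (1.09) or 3 (1.03) at 10 h, and stood at 8.58 ± 0.18 in micropylar endosperm at 7 h (SD, n = 4). The DELLA repressor RGL2 (AT3G03450, -0.57 ± 0.20, limma adjusted p = 0.0914) and GASA4 (AT5G15230, -0.56 ± 0.25) did not pass, nor did GA3OX1 (AT1G15550, -0.06 ± 0.12), the last step of gibberellin synthesis, and GA20OX3 is not analysed here.

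Among ABA genes the receptor PYL6 (AT2G40330) fell by 0.48 ± 0.13, the 1 of 22 signalling genes to pass, and was lost in 4 of the 8 fits with 1 array left out. The ABA-degrading CYP707A2 (AT2G29090, -0.28 ± 0.26) and the transcription factor ABI5 (AT2G36270, 0.24 ± 0.17) did not pass. Of 32 auxin genes 2 rose, the repressor IAA8 (AT2G22670) by 0.52 ± 0.12 and the response factor ARF5 (AT1G19850) by about 0.46 ± 0.14. Neither passed on the 8 arrays alone, and ARF5, whose groups overlapped, failed in 6 of the 8 fits with 1 array left out. The ethylene genes ACO1 (AT2G19590, 0.03 ± 0.20) and EBF2 (AT5G25350, -0.09 ± 0.22) did not pass. Of the panel of 20 germination genes 17 were measured, and only MCM3 and PCK1 passed.

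Single members of other lists changed too. GRF8 (AT4G24150), a growth-regulating transcription factor, fell by 1.38 ± 0.30 (limma adjusted p = 0.00132), from 8.94, 8.93, 9.04 and 8.83 to 7.49, 7.17, 7.77 and 7.81, without overlap. SOM (AT1G03790), a zinc finger protein that holds back germination in the dark in Arabidopsis, fell by 0.79 ± 0.19. At 7 h SOM was lower by 1.49 ± 0.19 in seeds with ruptured than with intact testa. CRD1 (AT3G56940), an enzyme of chlorophyll synthesis, fell by 0.92 ± 0.22. The glucosinolate genes SUR1 (AT2G20610, 1.05 ± 0.32) and BCAT3 (AT3G49680, 0.89 ± 0.26) rose, the 2 of 14 to pass, but neither did on the 8 arrays alone, and leaving out 1 array ended their calls in 5 and 4 of 8 fits. Of 73 cytosolic ribosomal proteins RPS13A (AT4G00100) rose by 0.51 ± 0.14 and RPS9C (AT5G39850) fell by 0.48 ± 0.12, and of 29 proteasome subunits RPT5A (AT3G05530) rose by 0.36 ± 0.11. All 3 lost their call on the 8 arrays alone, RPS9C also without replicate 1 at 10 h (-0.34), and RPS13A and RPT5A when any of 4 and 7 of the 8 arrays was left out.

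Of codes without a listed name, AT4G15160 had the largest rise of all probe sets, by 2.53 ± 0.28 (limma adjusted p = 4.14e-11). Its level was 4.42, 3.96, 3.96 and 3.59 at 7 h and 6.75, 6.17, 6.80 and 6.32 at 10 h. The codes that fell most were AT5G17170, by 1.37 ± 0.28 (adjusted p = 0.000503), and AT2G40880, by 1.35 ± 0.34 (adjusted p = 0.00807). For AT5G17170 the 7 h arrays stood at 5.64 to 6.39 and the 10 h arrays at 4.48 to 4.91, and AT2G40880 was lost without replicate 2 at 7 h (-1.10) and on the 8 arrays alone.

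**Figure D4:**
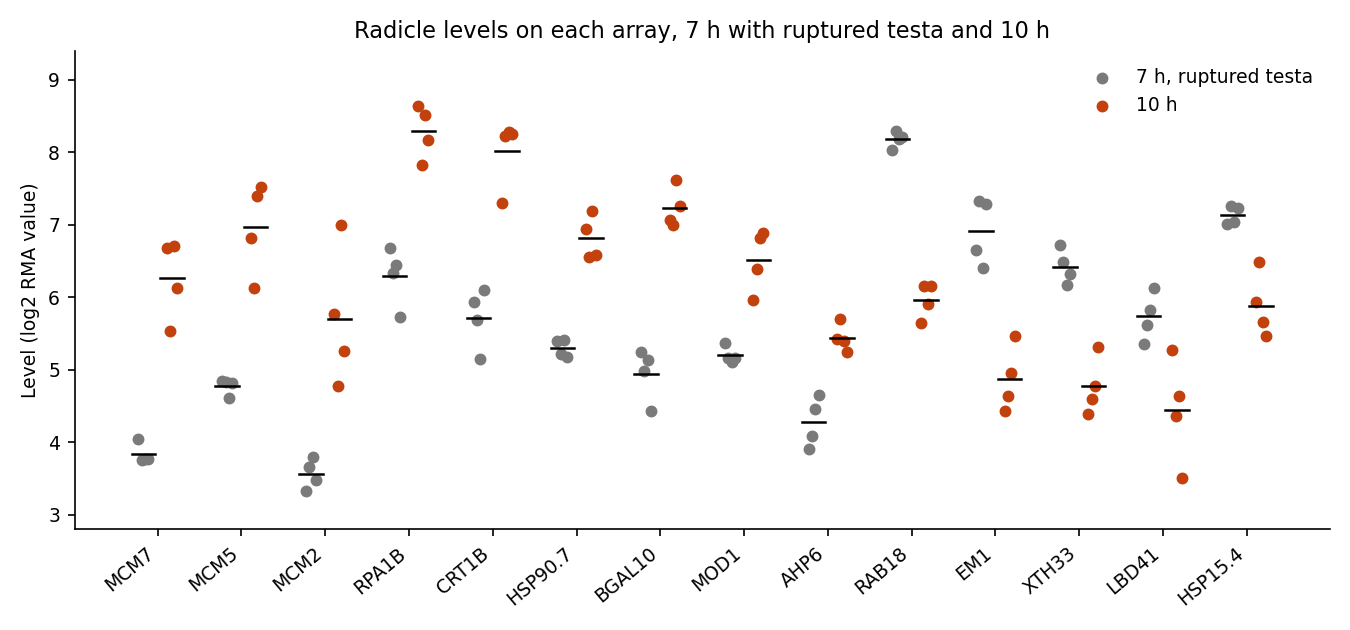
Level on each array (log2 value) of 14 genes in radicle at 7 h with ruptured testa and at 10 h, with the mean of each group as a bar. The 4 points of a group stand apart from those of the other in every gene shown, closest in LBD41, where 10 h replicate 1 is at 5.27 and the lowest 7 h array at 5.36.

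The same step in micropylar endosperm, measured on 8 arrays of its own, served as the comparison. There 440 probe sets passed (3.17%), 294 higher (2.12%) and 146 lower (1.05%), and 271 did without replicate 3 at 7 h, 293 without replicate 1 at either time. The 2 tissues shared 40 risers, which are 10.8% of the radicle's and 13.6% of the endosperm's, and 11 fallers, which are 5.24% and 7.53%, while 5 probe sets passed in opposite directions. Over all probe sets the changes correlated at r = 0.10, a description over genes that share arrays. The difference between the changes was tested directly and passed for 338 probe sets (2.43%), 179 with the more positive change in radicle (1.29%) and 159 with the more negative one (1.14%). Without replicate 3 of radicle at 10 h 161 passed, and without replicates 1 or 2 of endosperm at 10 h 212 and 214. Of the 70 genes of the first lists that passed in radicle, 13 were more positive and 2 more negative there.

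Of the 13, 8 were replication genes. None of the 24 passed in micropylar endosperm (median -0.01), and these 8 differed between the tissues: MCM4 by 2.32 ± 0.35, MCM5 by 2.25 ± 0.30, MCM2 by about 2.15 ± 0.31, RPA1B by 1.95 ± 0.32, MCM7 by 1.89 ± 0.32, RNR1 by 1.09 ± 0.28, MCM3 by 0.96 ± 0.26 and CDC45 by about 0.58 ± 0.16. The values of MCM2 and CDC45 are approximate because a level under the brightness limit enters them. MCM5 was at 5.02 ± 0.29 and 4.96 ± 0.37 at the 2 times in micropylar endosperm, and at 3.99 ± 0.19 in cotyledons at 7 h with intact testa and 4.17 ± 0.38 at 13 h (SD, n = 4 each). RPA1B in cotyledons was at 4.76 ± 0.33 and 5.78 ± 0.38 at those hours (SD, n = 4 each). On the 16 arrays of the 4 groups alone, MCM3 and CDC45 no longer differed, and with 1 array left out MCM3 was lost in 2, RNR1 in 3 and CDC45 in 7 of 16 fits.

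RBR1 (1.61 ± 0.38), AHP6 (1.12 ± 0.29), RGL3 (1.12 ± 0.29) and PLT2 (1.07 ± 0.28) also had the more positive change in radicle, as did BGAL10 (1.26 ± 0.35), which rose in endosperm as well, by 1.03 ± 0.25. LBD41 (-1.59 ± 0.45) and PCO2 (-0.97 ± 0.26) were the 2 listed genes that fell in radicle and differed: in endosperm they were at 0.30 ± 0.32 and 0.20 ± 0.18. Calls on the difference were lost with 1 array left out in 9 of 16 fits for LBD41, 6 for BGAL10, 5 for PCO2, 2 for RGL3 and PLT2 and 1 for AHP6. The unlisted AT4G15160 differed by 2.85 ± 0.39 (limma adjusted p = 2.69e-07), being at -0.32 in endosperm. The unlisted AT5G17170 differed by -1.42 ± 0.40 and was lost in 8 of 16 fits. On the 16 arrays alone the calls of LBD41, PLT2 and RGL3 ended.

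Of the 25 folding genes, a list put together after its values were seen, 10 rose in micropylar endosperm, and 8 rose in both. The 8 are 61.5% of the radicle's risers and 80% of the endosperm's, shares that carry no weight of their own. CRT1A rose by 1.57 ± 0.27 in radicle and 1.53 ± 0.27 in endosperm, and CNX1 by 1.12 ± 0.22 and 1.14 ± 0.22. CRT1B rose by 2.30 ± 0.27 in radicle and 1.32 ± 0.27 in endosperm, a difference of 0.98 ± 0.38 that did not pass (limma adjusted p = 0.18). HSP90.7 rose by 1.51 ± 0.22 and 1.07 ± 0.22, and the difference of 0.45 ± 0.31 did not pass either. The difference passed for STT3B (AT1G34130, 0.73 ± 0.20) alone, a gene that passed in neither tissue and lost that call in 9 of 16 fits with 1 array left out. Of the dehydration proteins, RAB18, EM1 and XERO1 fell in both tissues, in endosperm by 1.40 ± 0.22, 1.65 ± 0.33 and 0.71 ± 0.21, and no member differed between them. A difference that did not pass does not show that the tissues changed alike.

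Of 20 genes of flavonoid and phenylpropanoid synthesis none passed in radicle (-0.53 to 0.20), where 4.17% of all probe sets passed. In micropylar endosperm 7 rose (2.12% of all probe sets), and 6 differed with the more negative change in radicle (1.14%). CHS (AT5G13930), chalcone synthase, which begins flavonoid synthesis, was at 4.07 ± 0.10 and 4.05 ± 0.23 in radicle at 7 h and 10 h and at 5.50 ± 0.22 and 7.62 ± 0.17 in micropylar endosperm (SD, n = 4 each), a difference of -2.14 ± 0.38 (limma adjusted p = 0.000127). CHS kept its call on the difference in every fit run. F3H and HCT lost theirs on the 16 arrays alone and each in 3 of 16 fits with 1 array left out. PAL1 and FLS1, whose radicle levels were under the brightness limit at both times, lost theirs when only radicle and micropylar endosperm arrays were fitted, PAL1 also without endosperm replicate 2 at 10 h (-1.21) and FLS1 in 4 of the 16 fits. C4H lost its call without endosperm replicate 3 at 10 h (-1.13). The class III peroxidase PRX69 (AT5G64100), chosen after its values were seen, differed by about -3.37 ± 0.34 (adjusted p = 6.72e-12), a value that is approximate because its radicle level was under the brightness limit at both times.

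**Figure D5:**
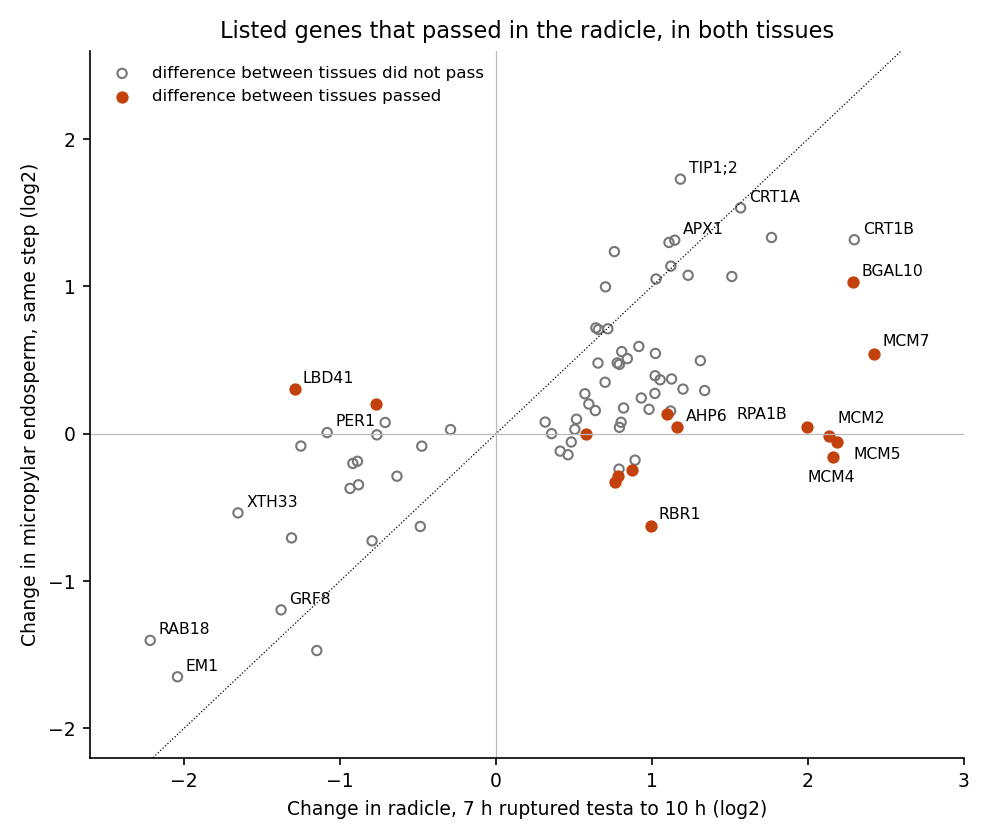
Log2 change from 7 h with ruptured testa to 10 h in radicle against the same step in micropylar endosperm for 82 genes that passed in radicle, 70 of the first lists and 12 of the folding list put together after its values were seen, with the 15 whose difference between tissues passed filled and equal change as a dotted line. MCM2, MCM4, MCM5 and RPA1B lie near 0 in micropylar endosperm, and CRT1A near equal change.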

How the data were processed

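Biotin-labelled RNA (100 ng per sample, a 3' amplification kit, per the labels' protocols) was hybridised to 1-colour arrays. The deposited values are log2 expression; per the submitters' processing notes the authors ran RMA (affy). Versions, array design and build are not given in the sources used here. RMA gives all arrays 1 distribution, so a change is relative to most other transcripts, and small differences among dim probe sets shrink. Probe sets are keyed by Arabidopsis locus codes without names: symbols come from lists of 1255 loci (929 measured). Each value belongs to any cress transcript that its probes captured. The precision is limited by the number of arrays.

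All 107 arrays entered 1 fit of group means with limma 3.58.1 in R 4.3.3 (degrees of freedom: 80 residual, 6.04 prior), with Benjamini-Hochberg adjustment over 13895 probe sets. The script was tested on simulated data. A change that involves a level under 3.59 is approximate and may be understated. Members and lists were chosen with earlier results of these data known, and the folding list after its values were seen. Named were the 15 largest listed risers and 15 fallers without overlap, up to 4 passing members per list, 20 panel genes, up to 8 per direction of interaction, and 2 unlisted codes each way; other members of a list were named after their values were seen. The fit has no block. Alternatives were moderation, a brightness filter, centring, quantile normalization, array weights, smaller sets of arrays, a replicate block and each array left out.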

Additional observations from a re-analysis of the deposited data

Results flagged for a closer look

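In 160 groups of 4 arrays, 80 named genes at 2 times, the array farthest from the others stood apart in 7 by Dixon's test, a test that chance passes in about 1 of 20 groups. At 7 h, replicate 1 was high for MCM4 (4.58, the others at 3.91 to 3.98) and for MCM7 (4.05, the others at 3.76 to 3.77). At 7 h too, replicate 2 was high for FSD1 (3.27, the others at 3.07 to 3.08) and replicate 3 was low for MCM5 (4.61, the others at 4.81 to 4.85). At 10 h, replicate 1 was low for CRT1B (7.29, the others at 8.23 to 8.28) and for MBF1C (3.46, the others at 3.70 to 3.72) and high for AGP18 (4.40, the others at 4.17 to 4.19).

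The change from 7 h with ruptured testa to 10 h differed between radicle and micropylar endosperm, tested as an interaction in limma, for 15 of those 80 named genes. It also passed for other genes of the lists, outside the 80, among them RNR1, CDC45, STT3B, CHS and PRX69. Among the 15 it was more positive in radicle for AT4G15160 (2.85), MCM4 (2.32), MCM5 (2.25), MCM2 (2.15), RPA1B (1.95), MCM7 (1.89), RBR1 (1.61), BGAL10 (1.26), RGL3 (1.12), AHP6 (1.12), PLT2 (1.07) and MCM3 (0.96). The radicle had the more negative change for LBD41 (-1.59), AT5G17170 (-1.42) and PCO2 (-0.97).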

How the results depend on the processing

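Of the 85 named genes that passed between 7 h and 10 h, 38 kept their call under every alternative run. None changed direction, which carries no weight of its own. These genes had passed, and several alternatives leave the log2 change as it was. Array weights gave 911 passing probe sets in the radicle step, 1803 in the endosperm step, 1169 for the difference between tissues, 637 at testa rupture in radicle and 114 from 10 h to 13 h. On the arrays of the groups compared alone, the counts were 202 in the radicle step, 1148 for radicle at 10 h against intact 7 h seeds and 4 from 10 h to 13 h, with 6 replication and 2 fatty acid genes higher; on radicle arrays alone 25 passed from 10 h to 13 h. The share of risers went from 66.8% to 51.7% with array weights and to 53.1% on the compared arrays in the endosperm step. With 1 array left out, the counts ran from 370 to 627 in the radicle step, 271 to 581 in the endosperm step, 161 to 402 for the difference, 1284 to 1883 against intact seeds, 111 to 242 at testa rupture and 24 to 69 from 10 h to 13 h. Members passing then were 9 to 13 for replication, 11 to 13 for folding, 3 to 5 for fatty acid synthesis and 4 to 6 for dehydration. A replicate block moved the radicle count to 576. Over all probe sets, same-numbered radicle arrays did not deviate together (r = -0.04 to 0.07), which cannot exclude a pairing that touches fewer genes. List counts were repeated as alternatives chosen after seeing the data. Of 36 listed or named differences between tissues, 13 kept their call in every fit. Levels near 3.59 and 4 arrays a group limit what small changes could be detected.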
